A study of Canis lupus familiaris with 10 samples.

Results

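miR-191 and miR-425 are a pair of microRNAs (miRNAs) whose genes lie next to each other. They were chosen here by name, as the 2 rows of the deposited table called cfa-miR-191 and cfa-miR-425, among 320 canine miRNAs counted in all. Both passed the filter on low counts, as did 247 miRNAs in total. The small RNA libraries came from frozen lymph node tissue, each from another dog, 6 with diffuse large B-cell lymphoma (DLBCL1 to DLBCL6) and 4 healthy (Healthy2 to Healthy5). The former were patients of several breeds and both sexes, whose nodes were sampled by surgical biopsy. Their ages are not given in the sources used here. The healthy dogs were purpose-bred young female hound crosses, and their nodes were collected after euthanasia. Breed, sampling and diagnosis therefore cannot be told apart. Sex was not balanced between the groups either, and age could not be compared.

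A miRNA is a short RNA that guides a silencing complex to messenger RNAs with a matching site, which lowers their stability or translation. Neighbouring miRNA genes are often copied into one primary transcript, from which each hairpin is then cut, so that the amounts of the mature miRNAs depend on a shared first step and on separate later steps. In the human genome, miR-191 and miR-425 lie in an intron of DALRD3, a gene with a role in transfer RNA modification. miR-191 is present in most tissues and has often been used as a reference for RT-qPCR. In mouse red cell precursors it declines during maturation, and keeping it high blocks the loss of the nucleus. miR-425 is known for repressing the messenger RNA of NPPA, the precursor of a natriuretic peptide.

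In RefSeq's gene list for the dog (assembly UU_Cfam_GSD_1.0), MIR191 and MIR425 are direct neighbours with no other gene between them. They stand between NDUFAF3, which encodes an assembly factor of mitochondrial complex I, and DALRD3. The listed span of DALRD3 does not reach either miRNA gene, so the placement within one host gene known from the human genome is not shown by this annotation. Each of the 2 names matched a single gene there. The table gives neither name an arm of the hairpin, and 1 row stands for each.

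The libraries held between 10686441 and 34709421 miRNA reads. Expression is given as CPM, counts scaled to a common total after edgeR's TMM adjustment of the library size. The TMM factors ran from 0.507 in Healthy2 to 2.03 in DLBCL6, so the choice of scaling weighs on every level below. The count of miR-425 was never below 15139 reads, and the counting error of a single value was at most 0.813%. This covers counting only, since reads copied by PCR are not independent molecules. As a check of the tissue, miR-142, a miRNA of white blood cells, measured between 3382 and 7521 CPM in all libraries. None of 5 lymphocyte miRNAs (miR-150, miR-155, miR-181a, miR-342 and miR-146a) was at 0 in any library. That is a weak check at this depth, because the muscle miRNA miR-1 was not at 0 in any library either. In whole nodes, fewer cells of a type and less RNA per cell cannot be told apart. The study's read statistics list the share of bases at quality score Q30 for each library. From these values the libraries were split here into a higher and a lower group, which the study did not define. DLBCL1, DLBCL2, DLBCL3 and DLBCL5 are in the higher group, and DLBCL4, DLBCL6 and the 4 healthy libraries in the lower one.

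miR-191 was among the most abundant miRNAs of every node. By reads it ranked between the 10th and the 18th of the 320 miRNAs in each library. Of the miRNA reads it made up 0.460% ± 0.192 (SD, n = 4) in the healthy nodes and 1.41% ± 0.759 (SD, n = 6) in the lymphomas. In the healthy libraries miR-191 measured 4582 CPM in Healthy2, 6723 in Healthy3, 5961 in Healthy4 and 5780.4 in Healthy5. In the DLBCL libraries it measured 9335 CPM in DLBCL1, 7399 in DLBCL2, 14038 in DLBCL3, 12949 in DLBCL4, 7320.05 in DLBCL5 and 11888 in DLBCL6. Every DLBCL library lay above every healthy library, although DLBCL5 and DLBCL2 came close to Healthy3. A complete separation in this direction was found for 6.88% of the 247 miRNAs tested.

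miR-425 was less abundant than miR-191 in each of the 10 libraries. It ranked between the 19th and the 37th miRNA in DLBCL and between the 30th and the 46th in healthy nodes. Its level was 861 CPM in Healthy2, 823 in Healthy3, 2028 in Healthy4 and 1056 in Healthy5. In DLBCL it was 6417 CPM in DLBCL1, 2515 in DLBCL2, 2667 in DLBCL3, 1632 in DLBCL4, 5984 in DLBCL5 and 2015 in DLBCL6. In CPM, DLBCL1 and DLBCL5 stood well above the other 4 lymphomas. The groups overlapped, because Healthy4 held more miR-425 than DLBCL4 and slightly more than DLBCL6. In CPM the highest DLBCL library exceeded the lowest by 3.93-fold for miR-425 and by 1.92-fold for miR-191, whereas in the deposited TPM values the order was the opposite, with 3.27-fold for miR-425 and 4.73-fold for miR-191.

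**Figure D1:**
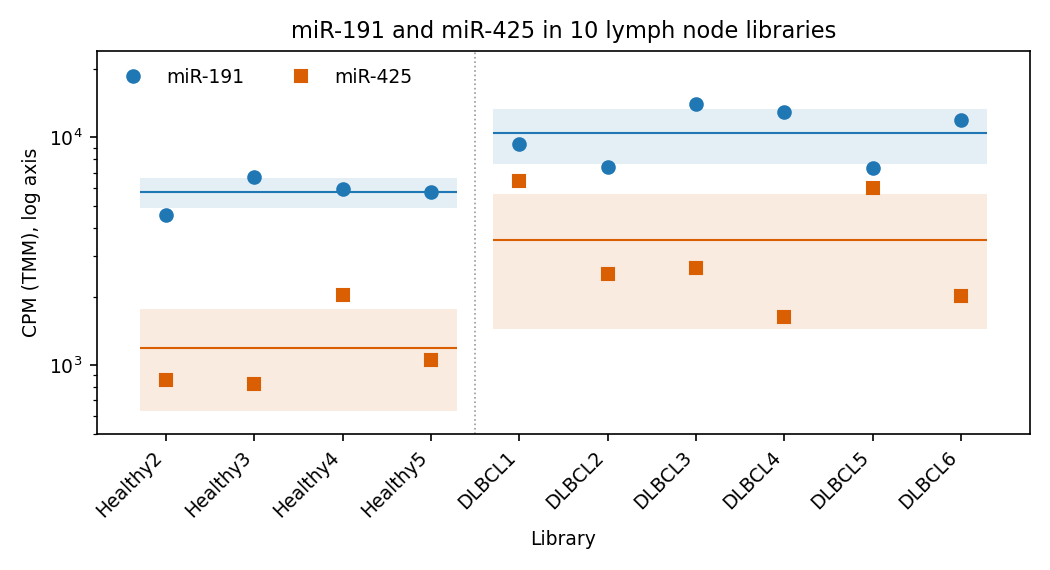
CPM (TMM, log axis) of miR-191 (blue circles) and miR-425 (orange squares) in each library, with the group mean (line) and 1 SD either way (band). All 6 DLBCL libraries lie above the healthy ones for miR-191, while for miR-425 Healthy4 (2028 CPM) lies above DLBCL4 (1632 CPM) and DLBCL6 (2015 CPM).

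The difference between lymphomas and healthy nodes was tested in a quasi-likelihood fit of edgeR to all 247 miRNAs, and p-values were adjusted over all of them by Benjamini-Hochberg. A miRNA was called at an adjusted p-value under 0.05 with a fold change over 2, the thresholds of the study. The healthy mean of miR-191 was 5761 ± 886 CPM (SD, n = 4) and the DLBCL mean was 10488 ± 2882 CPM (SD, n = 6). The fit put miR-191 at 1.82-fold, a log2 fold change of 0.86 ± 0.32 (standard error), with an edgeR adjusted p of 0.113. For miR-425 the healthy mean was 1192 ± 567 CPM (SD, n = 4) and the DLBCL mean was 3538 ± 2099 CPM (SD, n = 6). Here the fit gave 2.97-fold, a log2 fold change of 1.57 ± 0.50 (standard error), with an edgeR adjusted p of 0.0927. Neither passed the adjusted threshold, so 0 of the 2 were called, against 5.67% of all miRNAs tested in either direction and 3.64% as higher in DLBCL.

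Before adjustment, both miRNAs had an edgeR p-value under 0.05 and a positive log2 fold change, as did 17.4% of all miRNAs tested. The unadjusted values from edgeR were 0.0173 for miR-191 and 0.00826 for miR-425. By size of log2 fold change, miR-425 was the 42nd highest and miR-191 the 79th of the 247. DESeq2 called miR-425, with a log2 fold change of 1.61 (adjusted p = 0.0242), and so did limma-voom run with quality weights, with 1.57 (adjusted p = 0.0178). These tools called 10.9% and 10.5% of the miRNAs they tested as higher in DLBCL. Neither tool called miR-191, for which the adjusted p-values were 0.0979 from DESeq2 and 0.0571 from limma. Without DLBCL4, edgeR also called miR-425, with a log2 fold change of 1.76 (adjusted p = 0.0441), in a fit that called 5.74% of all miRNAs as higher in DLBCL. Taken as single values, the difference of mean log2 CPM gave p = 0.00952 for miR-191 and p = 0.0286 for miR-425 (two-sided exact permutation of the group labels, 210 arrangements, not adjusted over the other miRNAs). Scaled to the total of miRNA reads instead, the same permutation gave p = 0.0286 for miR-191 and p = 0.00476 for miR-425. The latter is the smallest p possible.

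Which of the 2 miRNAs separated the groups turned on the scaling. The deposited TPM values are scaled to the total of miRNA reads, without the TMM adjustment. On that scale miR-425 ran from 2197 to 7175 TPM in DLBCL and from 436 to 1269 TPM in healthy nodes, with no overlap, as for 13.8% of the miRNAs tested. miR-191 ran from 5111 to 24159.9 TPM in DLBCL and from 2321 to 6414 TPM in healthy nodes, where DLBCL5 fell within the healthy range. Of the lymphomas, DLBCL1 alone stood apart in miR-425 on this scale, at 7175 TPM, with 4178 TPM in DLBCL5, 4094 in DLBCL6 and 2197, the lowest, in DLBCL3. Scaled this way, the log2 fold changes were 1.61 for miR-191 (adjusted p = 0.0509 from edgeR) and 2.15 for miR-425 (adjusted p = 0.011 from edgeR), which was called, as were 8.91% of all miRNAs in this direction. The median of all miRNAs tested moved at the same time from 0.13 to 0.82. Relative to that median, miR-191 was at 0.73 with TMM and 0.79 with total reads, and miR-425 at 1.44 and 1.33. These relative values stay close by construction, since a scaling shifts all miRNAs nearly alike.

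The split by Q30 moved the 2 miRNAs in opposite directions. Within the lower Q30 group, where DLBCL4 and DLBCL6 were set against the 4 healthy libraries, miR-191 had a log2 fold change of 1.10 (adjusted p = 0.0363 from edgeR) and was called, as were 11.6% of the miRNAs tested there in this direction. miR-425 had one of 0.60 there (adjusted p = 0.408 from edgeR). With the Q30 group as a covariate the values were 1.11 for miR-191 (adjusted p = 0.148 from edgeR) and 0.61 for miR-425 (adjusted p = 0.642 from edgeR). No healthy library is in the higher Q30 group, so no within-group comparison could be made there. The covariate fit therefore rests on the same contrast, DLBCL4 and DLBCL6 against the 4 healthy libraries, and is not a second check.

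**Figure D2:**
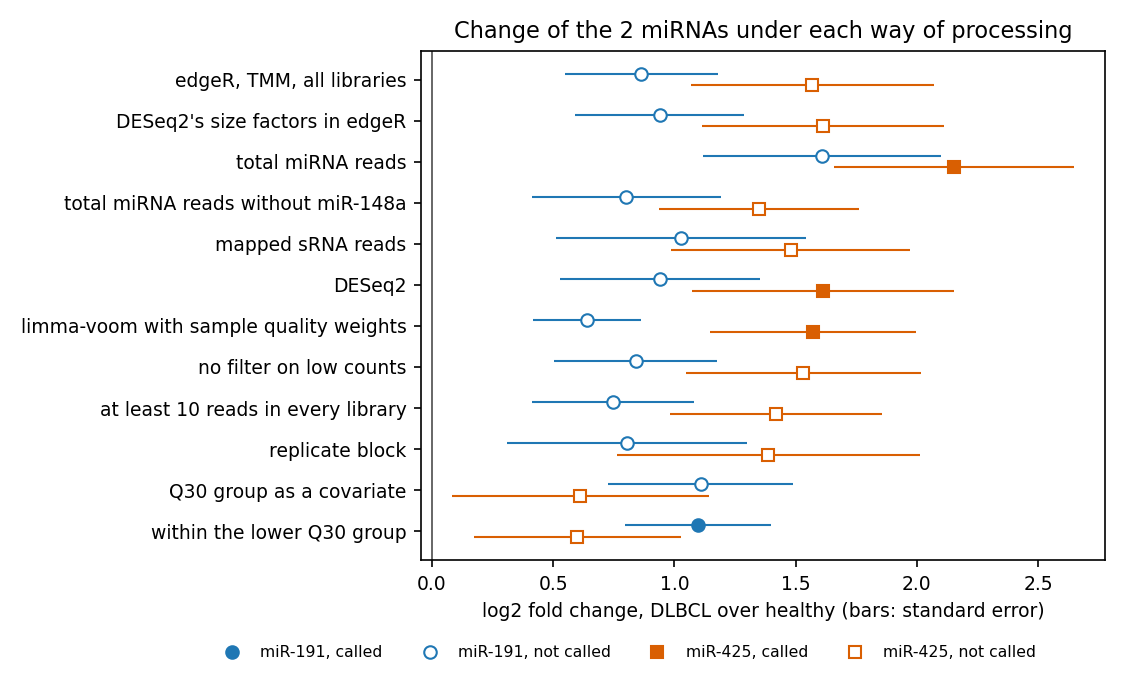
Log2 fold change of DLBCL over healthy nodes (x axis) with its standard error (bars) for miR-191 (blue) and miR-425 (orange) under each way of processing, with filled symbols where the miRNA was called. All values lie above 0, and miR-425 lies above miR-191 except in the bottom 2 settings. These take the Q30 group into account and rest on the same contrast, DLBCL4 and DLBCL6 against the healthy libraries. miR-191 is filled only within the lower Q30 group.

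The ratio of the 2 miRNAs within a library does not depend on how the library is scaled. Per 100 reads of miR-191 there were 18.8 reads of miR-425 in Healthy2, 12.2 in Healthy3, 34.0 in Healthy4 and 18.3 in Healthy5. In DLBCL there were 68.7 in DLBCL1, 34.0 in DLBCL2, 19.0 in DLBCL3, 12.6 in DLBCL4, 81.7 in DLBCL5 and 16.9 in DLBCL6. DLBCL5 and DLBCL1, in which the pair came nearest to equal numbers, stood above all others, while DLBCL3, DLBCL4 and DLBCL6 lay among the healthy libraries. Counting error was far smaller than these differences. In DLBCL5 miR-425 made up 44.98% of the reads of the pair (Wilson 95% interval 44.8% to 45.2%), and in DLBCL4 11.2% (11.1% to 11.3%).

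The mean log2 ratio of miR-425 to miR-191 was -2.36 ± 0.61 (SD, n = 4) in the healthy nodes and -1.72 ± 1.12 (SD, n = 6) in the lymphomas. The difference of 0.64 (standard error 0.55), a 1.56-fold higher ratio in DLBCL, did not exceed the spread between dogs (two-sided exact permutation test over 210 splits, p = 0.333). This is also the test of whether the 2 miRNAs differed in their change between the groups. Within the lower Q30 group the difference had the opposite sign, -0.41 (exact permutation over 15 splits, p = 0.4, where the smallest p possible is 0.0667). Among the lymphomas, the ratio was 1.58 higher on the log2 scale in the higher than in the lower Q30 group (exact permutation, p = 0.133, with 0.0667 the smallest p possible), a comparison added after the data were seen.

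**Figure D3:**
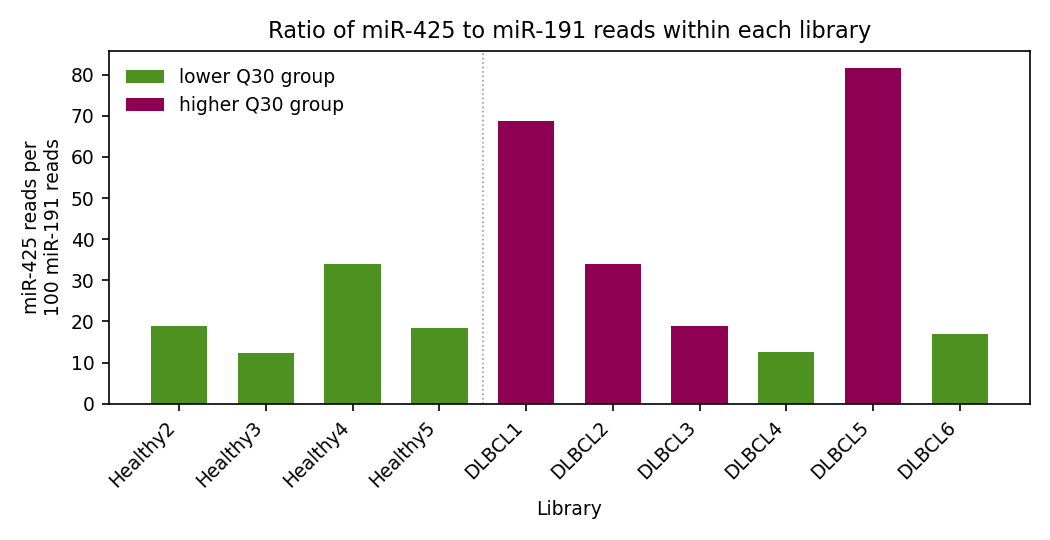
Reads of miR-425 per 100 reads of miR-191 (y axis, from 0) in each library, coloured by Q30 group. DLBCL1 (68.7) and DLBCL5 (81.7) lie far above the other 8 libraries, which range from 12.2 to 34.0.

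Across the 6 lymphomas no relation between the 2 miRNAs passed the test. Pearson's r of their log2 CPM was -0.60 (exact permutation of the 720 pairings, p = 0.258, adjusted p = 0.419 over the 2 coefficients) and Spearman's rho was -0.43 (exact permutation, p = 0.419, adjusted p = 0.419). Leaving out DLBCL2 and DLBCL5, the libraries farthest from the median of miR-191, r was -0.80 over the remaining 4. A pooled r was not tested, because the groups do not overlap in the CPM of miR-191, and 4 healthy libraries are too few for one.

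miRNAs of red blood cells also differed between the groups. The list of miR-451, miR-144 and miR-486 summed to between 808 and 1070.4 CPM in the healthy libraries and between 5171 and 35566 CPM in DLBCL. edgeR called 2 of the 3, miR-451 and miR-486, as higher in DLBCL, against 3.64% of all miRNAs tested. DESeq2 called miR-451 and miR-144 and gave no adjusted p for miR-486, limma-voom called all 3, and none of the 3 was at 0 in any library. In the lymphomas with the highest CPM of miR-425, DLBCL1 and DLBCL5, the list summed to 35566 and 24661 CPM. It summed to 29459 CPM in DLBCL2 and 31753 CPM in DLBCL3, where miR-425 was at 2515 and 2667 CPM. DLBCL4 and DLBCL6, the lymphomas of the lower Q30 group and those with the lowest CPM of miR-425, held 5171 and 9429 CPM of the list. This order depends on the scaling, since in TPM DLBCL6 had the third highest miR-425 of the lymphomas and DLBCL3 the lowest. Its part in the level of miR-425 was not tested.

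The 5 lymphocyte miRNAs summed to 7518 to 20912 CPM in DLBCL and 18651 to 35718 CPM in healthy nodes. Of them edgeR called 2 lower, miR-150 and miR-146a, against 5 of all 247 miRNAs tested. The list did not move as one, since miR-155 had a positive log2 fold change of 0.44 (adjusted p = 0.568 from edgeR). Those of miR-181a and miR-342, not called by edgeR, were negative. DESeq2 called 2 of the list lower, against 12 of all 293 miRNAs it tested, and limma-voom 3, against 20 of 247. Of 6 miRNAs of stroma and vessels, 4 testable ones of epithelium, 2 of skeletal muscle, miR-142 and the myeloid miR-223, edgeR called 0, 0 had an unadjusted p-value under 0.05, and DESeq2 and limma-voom also called 0. Over all miRNAs tested, edgeR called 14 of 247 in either direction (5.67%), DESeq2 44 of 293 and limma-voom 46 of 247. At such shares, 0 calls among so few miRNAs say little about these cell types.

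The miRNAs whose levels followed each member most closely were ranked by Pearson's r of log2 CPM over the 10 libraries, among 246 other miRNAs. These values describe the libraries, and the difference between the groups enters into them. For miR-191 they were miR-190b (r = 0.89), miR-31 (0.88), miR-1296 (0.88), miR-362 (0.85) and miR-1306 (0.84). For miR-425 they were miR-505 (0.91), miR-8829 (0.86), the red cell miRNA miR-451 (0.84), miR-128 (0.81) and miR-133c (0.78). The 2 lists share no miRNA. With each group's mean taken off, miR-1296 (0.87), miR-374b (0.86) and miR-190b (0.85) were nearest to miR-191, and miR-505 (0.87), miR-320 (0.82) and let-7c (0.79) to miR-425. Over the 10 libraries, miR-425 itself ranked 66th in likeness to miR-191, with r = 0.39. With the group means taken off, it ranked 202nd, with r = -0.44. Both values are also a description of these libraries.

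To set the spread of the ratio beside that of other neighbours, pairs of miRNA genes standing next to each other in the annotation, at most 10000 bases apart, were taken where both miRNAs were tested and had a single gene. There were 50 such pairs, the pair of miR-191 and miR-425 included. The SD of its log2 ratio over the 10 libraries was 0.96, against a median of 1.02 for the 50 pairs, and it had the 30th highest SD. Among the 8 pairs with at least 1000 reads of both miRNAs in every library it was the 6th highest, and the median was 1.11. The smallest SD was that of miR-106b and miR-93, at 0.36, which lie together in the MCM7 gene in human. Next to these, miR-93 and miR-25 of the same cluster had an SD of 1.35, and miR-221 and miR-222 one of 1.19. The largest, 2.64, was that of miR-432 and miR-136, but this pair had a count of 0 in some library, so that its SD rests on the 0.5 added to each count. Among the 42 pairs without a 0, the largest was that of miR-451 and miR-144, at 2.08. The ratio of miR-425 to miR-191 covered a range of 6.67-fold over the 10 libraries, the 18th lowest of the 50 pairs, whose median was 10.6-fold.

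**Figure D4:**
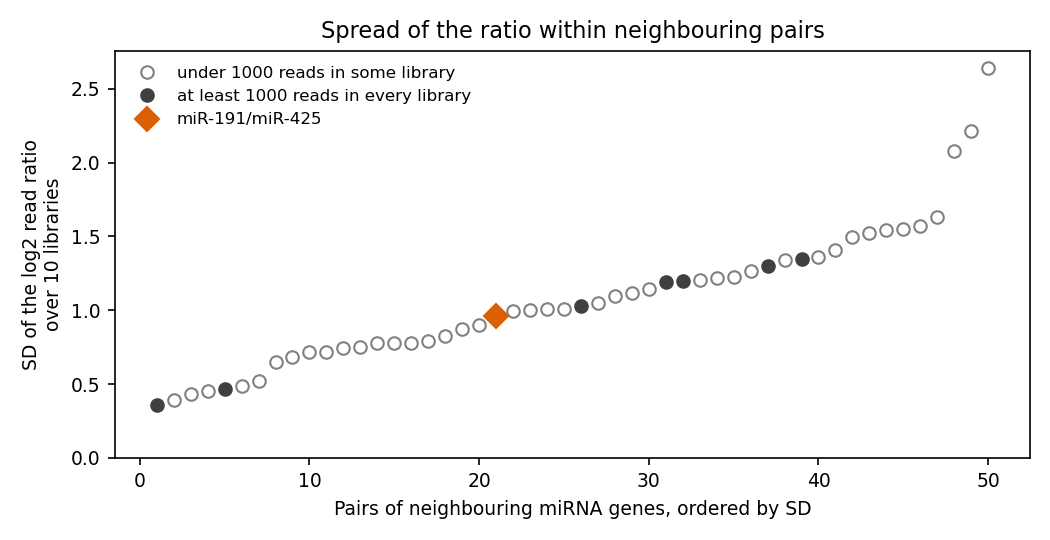
SD of the log2 read ratio over the 10 libraries (y axis) for 50 pairs of neighbouring miRNA genes, ordered from the lowest to the highest, with filled points for pairs of at least 1000 reads in every library and a diamond for miR-191/miR-425. The diamond (0.96) lies near the median of 1.02.

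As miR-191 has served as a reference miRNA, its spread was set beside a list of 14 miRNAs used or proposed as references. Of these, 13 were found in the table and tested, miR-191 and miR-425 themselves included. The SD of log2 CPM of miR-191 over the 10 libraries was 0.54, the 23rd lowest of the 247 miRNAs. Within groups, with the difference between them taken off, it was 0.35 and the 8th lowest. These values rest on TMM. With total miRNA reads the SD of miR-191 over the 10 libraries was 1.08, the 84th lowest, against a median of 1.27. In TMM values miR-425 had an SD of 1.04 over the 10 libraries, close to the median of 1.05 over all miRNAs tested, and of 0.75 within groups. Lower values over the 10 libraries than that of miR-191 were measured for miR-361 (0.26), miR-101 (0.26), let-7a (0.42), miR-26b (0.43) and miR-24 (0.45). The study had itself chosen miR-361 and miR-101, with miR-29c, as references for their stable RT-qPCR values in its DLBCL and healthy samples. The low spread of miR-361 and miR-101 is therefore not an independent result. For miR-29c the SD over the 10 libraries was 1.29. Of the 13, edgeR called 0, and 6 had an unadjusted p-value under 0.05 and a positive log2 fold change. DESeq2 called 2 and limma-voom 3, each time as higher in DLBCL. Both miR-191 and miR-425 are among those 6, and miR-425 is among the calls of DESeq2 and of limma-voom. The list is therefore not a background independent of the pair. The shares of all miRNAs as higher in DLBCL were 3.64% for edgeR's calls, 17.4% unadjusted, 10.9% for DESeq2 and 10.5% for limma-voom. The median log2 fold change of the list was 0.35, against 0.13 over all miRNAs tested.

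The miRNAs nearest to each member in mean log2 CPM give its level a frame. miR-191 was the 12th most abundant of the 247, between miR-7, with a log2 fold change of 1.55 (adjusted p = 0.109 from edgeR), and miR-25, with one of 1.20 (adjusted p = 0.141 from edgeR). miR-425 was the 31st, between miR-532, with 1.22 (adjusted p = 0.183 from edgeR), and miR-27a, with -0.27 (adjusted p = 0.749 from edgeR).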

How the data were processed

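Per the study's methods and the submitters' processing notes, trimmed reads were mapped with Bowtie 0.12.9 (build CanFam3.1), those from repeats or other kinds of small RNA were taken out, and known miRBase miRNAs were counted with miRDeep2. The authors deposited read counts without normalization. The deposited TPM values are these counts scaled to the miRNA reads of the library (difference at most 4.55e-05). The counting was not repeated.

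Counts were tested with edgeR 4.0.16 in R 4.3.3 (TMM, default filter by group, quasi-likelihood test, Benjamini-Hochberg over 247 miRNAs, prior count 2 for log2 CPM). The study used DESeq2 with the same thresholds, run here as an alternative (DESeq2 1.42.0), with limma 3.58.1 (voom), other scalings and filters, the Q30 group, a replicate block and each library left out. The ratio and correlation were tested by exact permutation in Python 3.11.15 (numpy 2.4.6, scipy 1.17.1, pandas 2.3.3); plots used matplotlib 3.10.9. Scripts were tested on simulated data. Libraries of one group differed beyond sampling noise (smallest chi-squared per degree of freedom 1865).

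The members, lists, rules and tests were chosen with earlier results of these data known. Named beside the members are, by rule, the 5 miRNAs most like each in log2 CPM (3 with group means taken off), the next in abundance, the members of the lists, and neighbouring gene pairs with the extreme SDs or named in advance.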

Additional observations from a re-analysis of the deposited data

How the results depend on the processing

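Log2 fold changes of both miRNAs were above 0 in all 21 alternatives run for each. Against 0.86 for miR-191 in the reported fit, the call was gained only within the lower Q30 group (1.10), and the values ran from 0.64 to 1.61 (adjusted p = 0.0363 to 0.427) and, with each library left out, from 0.79 to 0.999. Against 1.57 for miR-425, the call was gained with total miRNA reads (2.15), DESeq2 (1.61) and limma-voom (1.57), and without DLBCL4 (1.76). Its values ran from 0.60 to 2.15 (adjusted p = 0.011 to 0.642) and, with each library left out, from 1.30 to 1.92. The difference in the log2 ratio, 0.64, reversed within the lower Q30 group (-0.41), and was 0.35 to 0.91 with each library left out, without a p under 0.05. The correlation within DLBCL stayed negative, at -0.31 with DESeq2's size factors and -0.23 with total reads, and from -0.84 to -0.40 with each library left out.

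With the replicate block, miR-191 was at 0.80, miR-425 at 1.39 and the ratio at 0.55 (sign flips of 4 pairs, exact p = 0.5), and 1 miRNA was called. The numbers do not pair the dogs: deviations of same-numbered libraries had r between -0.33 and 0.26, and only those numbered 2 correlated best with each other.

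The 14 calls over all miRNAs (9 higher, 5 lower), the background for the pair, became 8 with DESeq2's size factors (3 higher, 5 lower), 23 with total reads (22 higher, 1 lower), 7 with mapped reads and also 7 with the Q30 covariate, 44 with DESeq2, 46 with limma-voom and also 46 within the lower Q30 group. They became 3 without DLBCL1, 22 without DLBCL3, 23 without DLBCL4, 2 without Healthy2, 5 without Healthy3, 1 without Healthy4 and 6 without Healthy5. The cause was not tested. The counting error of the pair was at most 0.813%.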

Other observations

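The summed level of miR-191 and miR-425 ran from 9914 to 16705 CPM in DLBCL, a range of 1.69-fold, and from 5443 to 7989 CPM in healthy nodes, a range of 1.47-fold. As a share of all miRNA reads the pair took 0.551% ± 0.212 (SD, n = 4) in the healthy nodes and 1.81% ± 0.737 (SD, n = 6) in the lymphomas. On that scale the range of the sum in DLBCL was 3.04-fold, close to the 3.27-fold of miR-425 alone.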
